A study of Mus musculus with 3 samples.

Results

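The genes of the proteasome were compared between 3 RNAseq libraries of cultured adult mouse cardiomyocytes (ACMs). They were chosen as every protein-coding gene whose symbol begins with Psm, then a letter from a to g and a digit, which took 51 of the 56748 genes in the count table. Of these, 48 encode proteasome subunits, their assembly chaperones, activators or inhibitor. The other 3 match by symbol alone. Psmc3ip is a meiotic recombination cofactor, Psme3ip1 encodes a protein that interacts with an activator subunit, and Psme2b is a copy of Psme2.

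The cardiomyocytes were isolated from wild-type (WT) mice aged 8 to 10 weeks and plated on laminin in M199 with 5% serum and 10 mM BDM, an inhibitor of contraction. In serum-free medium with 0.1% BSA, BDM, insulin-transferrin-selenium and lipid they then received 10 ng/mL mouse oncostatin M (OSM), 10 ng/mL human IL-6 or the BSA vehicle alone for 16 hours. OSM and IL-6 are related cytokines that signal through gp130 and JAK kinases to STAT3. RNA was pooled, so that each treatment was 1 library and no replicate spread exists. All intervals below cover counting error only, and each comparison is between libraries rather than between treatments. No gene was deleted in these cells, and the vehicle, IL-6 and OSM libraries held 24939980, 26362446 and 30773001 counts.

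The proteasome degrades proteins tagged with ubiquitin. Its 20S core is a barrel of stacked rings, in which alpha subunits form the outer gate and beta subunits hold the proteolytic sites on the inside. The 19S regulatory particle caps the barrel, recognizes ubiquitin and unfolds substrates with a ring of ATPases. Interferon-responsive cells and lymphoid cells replace the catalytic beta subunits with the immunoproteasome subunits Psmb8, Psmb9 and Psmb10, which alters the peptides made for antigen presentation. Cardiomyocytes depend on the proteasome for the turnover of sarcomeric proteins. Because the complex has a fixed make-up, its subunit genes are often expressed together.

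Proteasome genes were among the well expressed genes of the ACMs. By counts over the OSM and vehicle libraries, 28 of 50 compared members fell in the highest of 10 equal-sized bins of protein-coding genes. By the authors' FPKM, a level per gene length and library, 47 of the 51 genes lay above 1 with vehicle, 47 with IL-6 and 46 with OSM. The share of all genes above 1 FPKM was not computed. Together they made up 0.670% of all counts with vehicle (95% Clopper-Pearson interval 0.667 to 0.673%), 0.682% with IL-6 (0.679 to 0.685%) and 0.756% with OSM (0.753 to 0.759%). The OSM library held the largest share. None of the intervals overlapped, and that of IL-6 also lay above that of vehicle. In the vehicle library the constitutive classes had median levels between 46.1 FPKM (19S non-ATPase) and 73.3 FPKM (19S ATPase), whereas the assembly chaperones had a median of 11.0 FPKM. Within a class the levels were not equal.

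The highest member of the 20S alpha class was Psma6, with 159 FPKM in the vehicle, 161 FPKM in the IL-6 and 197 FPKM in the OSM library. The lowest was Psma3, with 27.2, 28.6 and 36.3 FPKM. Among the constitutive 20S beta genes, Psmb5 stood highest at 111, 116 and 171 FPKM and Psmb7 was lowest with vehicle and OSM, at 35.3 and 41.0 FPKM. The 19S ATPases ranged from Psmc2 (37.9 FPKM with vehicle) to Psmc1 (110.1 FPKM with vehicle). The other 19S subunits ranged from Psmd1 (27.4 FPKM with vehicle) to Psmd2, a scaffold of the 19S base (137 FPKM with vehicle). The order rests on the length used. On canonical GENCODE transcript lengths the span of the 20S beta class grew from 3.16 times to 8.87 times with vehicle, and its lowest member was Psmb2, not Psmb7.

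**Figure D1:**
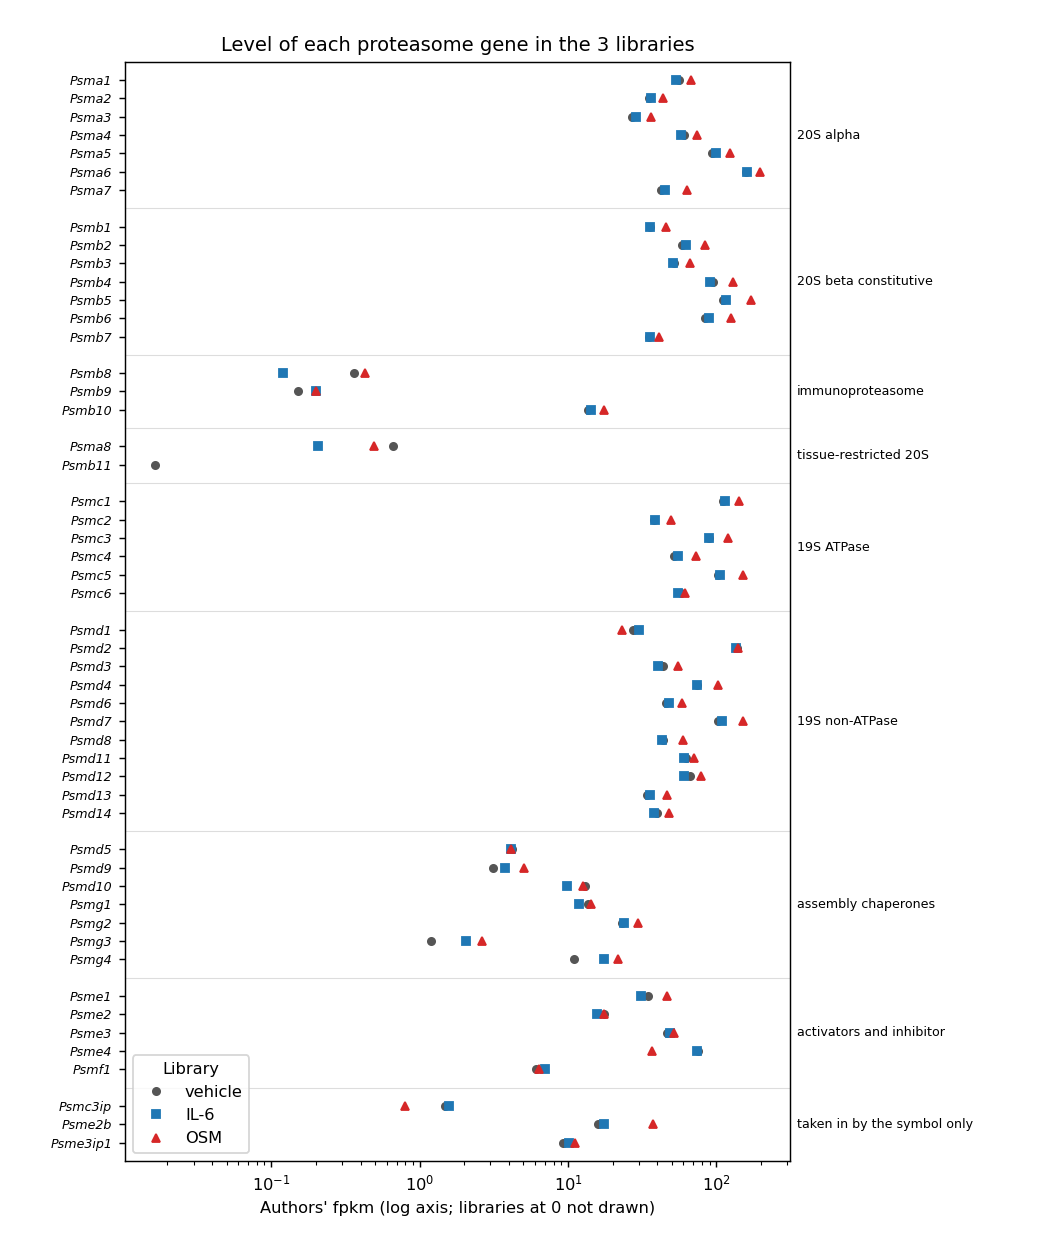
Level of each of the 51 genes (rows, grouped by role) in the vehicle, IL-6 and OSM libraries, as the authors' FPKM on a log axis, with 1 point per library. Constitutive core and 19S genes lie between 23.1 and 197 FPKM, most with the OSM point to the right of the other 2, while Psmb8, Psmb9, Psma8 and Psmb11 lie below 1 FPKM and Psme4 has its OSM point to the left.

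To ask whether OSM was accompanied by a change in proteasome transcripts, its library was compared with vehicle after TMM scaling. Most proteasome genes were modestly higher with OSM. Of the 51 genes, 50 had at least 10 counts over the pair of libraries and were compared, and the exception was Psmb11. The median log2 fold change of the 50 was 0.36 (quartiles 0.19 and 0.46), beside 0.00 for all 15537 compared genes and quartiles of -0.47 and 0.42 for protein-coding genes. Of the 50 genes, 44 lay above 0 and 6 below. The counting interval lay wholly above 0 for 38 genes, where 33.4% of all compared genes did so, and wholly below 0 for 3 genes, where 33.1% did so. At a 2-fold threshold only Psme2b was called higher, with a background of 3.74%, and 0 genes were called lower, with a background of 5.43%. The shift was thus broad and small.

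The members of the 20S core had the same direction before centring on transcript length. All 7 alpha genes and all 7 constitutive beta genes were higher with OSM beyond counting error, beside 33.4% of all compared genes. In the bin of shortest transcripts, described below, 66.9% of protein-coding genes were. Less the median of their bins, Psma1 (-0.20), Psma6 (-0.16), Psmb3 (-0.10) and Psmb7 (-0.26) were lower beyond counting error. Psma4, Psma5 and Psmb4 were within it, and Psma2, Psma3, Psma7, Psmb1, Psmb2, Psmb5 and Psmb6 stayed higher. Psma7, an alpha subunit, had 3266 counts with vehicle, 3754 with IL-6 and 5777 with OSM, and its log2 fold change of OSM against vehicle was 0.58 (0.52 to 0.64). Psma6 had 4948, 5377 and 7265 counts (0.31, 0.26 to 0.36) and Psma3 had 2679, 3016 and 4226 (0.42, 0.35 to 0.49). In each of these genes the OSM library was the highest. The summed counts of the alpha class gave 0.36 (0.34 to 0.38), and its members spanned 0.27 (Psma1) to 0.58 (Psma7).

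Psmb5 encodes the chymotrypsin-like subunit, the main target of proteasome inhibitors, and lies on chromosome 14 from 54851576 to 54855479 of GRCm39, minus strand. It had 2532, 2819 and 4590 counts with vehicle, IL-6 and OSM, and was 1.53-fold higher with OSM (log2 0.62, 0.55 to 0.69). Psmb6, the caspase-like subunit, had 3942, 4505 and 7027 counts (0.59, 0.54 to 0.65). Psmb7, the trypsin-like subunit, had 3053, 3297 and 4186 counts and the smallest difference of its class (0.21, 0.15 to 0.28). The intervals of Psmb5 and Psmb6 overlapped, and that of Psmb7 lay below both. The class sum gave 0.45 (0.42 to 0.47), the highest of the classes that belong to the complex.

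In the 19S particle, all 6 ATPase genes were higher beyond counting error before centring, beside 33.4% of all compared genes. They spanned 0.07 (Psmc6) to 0.54 (Psmc5), and their sum gave 0.37 (0.35 to 0.39). Less the median of its transcript length bin, Psmc6 was lower (-0.15, and -0.06 by gene length). The other ATPases stayed higher by transcript length. Psmc1 had 5386, 6026 and 8172 counts (0.36, 0.31 to 0.41) and Psmc2 had 4828, 5230 and 7423 (0.38, 0.33 to 0.43). The 11 non-ATPase genes were less uniform, with 9 higher, 1 lower and 1 within counting error. The shares of all compared genes were 33.4% higher and 33.1% lower. The sum of the non-ATPase genes gave 0.24 (0.23 to 0.26). Less the median of their transcript length bins, Psmd6 (-0.13) and Psmd12 (-0.08) were also lower beyond counting error. Psmd4 and Psmd14 were then within it. By gene length Psmd6 was higher (0.11) and Psmd12 within counting error (0.00). Psmd7, of the lid, was at the upper end (0.56, 0.51 to 0.60). Psmd1 and Psmd2, the large scaffold proteins of the base, were at the lower end. Psmd1 had 5042, 5907 and 5020 counts and was lower with OSM (-0.25, -0.30 to -0.19). Psmd2 had 14004, 14900 and 16759 counts and a log2 fold change of 0.02 (-0.01 to 0.05). In raw counts Psmd2 was highest in the OSM library, which was the deepest, and after scaling neither gene was higher.

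Assembly chaperones build the core and the base and then leave. Of the 7 genes, 4 were higher with OSM, beside 33.4% of all compared genes, and 3 were within counting error. Psmg3, a core chaperone, had 88, 161 and 229 counts and was 2.2-fold higher (1.14, 0.78 to 1.51), and its partner Psmg4 had 155, 261 and 360 counts (0.97, 0.70 to 1.26). Psmd9, a chaperone of the base, had 573, 742 and 1087 counts (0.68, 0.53 to 0.83), and Psmg2 had 1016, 1128 and 1545 (0.36, 0.25 to 0.48). In all 4 genes the order was vehicle, IL-6, OSM, although Psmg2 with IL-6 did not differ from vehicle beyond counting error (0.05, -0.07 to 0.17). Psmg3 did not reach the 2-fold call because its interval reached below 2-fold. Psmg1, the partner of Psmg2, had 463, 430 and 572 counts (0.06, -0.12 to 0.24). Psmd5 had 770, 807 and 896 (-0.02, -0.16 to 0.12) and Psmd10, also known as gankyrin, had 484, 389 and 554 (-0.05, -0.23 to 0.13). Less the median of their transcript length bins, Psmg3, Psmg4 and Psmd9 stayed higher and Psmg2 was within counting error (-0.11). Psmg1 (-0.41) and Psmd10 (-0.36) were then lower beyond counting error.

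The activators and the inhibitor did not move as a class, and Psme4 went against the core. Psme4 encodes PA200, an activator that caps the core without ubiquitin and has been linked to histone degradation. The gene lies on chromosome 11 from 30721726 to 30830361 of GRCm39, plus strand. It had 15994 counts with vehicle, 16688 with IL-6 and 9244 with OSM, so that the OSM library alone was low despite its greater depth. Its log2 fold change was -1.03 (-1.07 to -0.995), a 2.05-fold lower level, and it was the largest difference of any gene of the complex in that direction. The interval ended just short of 2-fold, so that Psme4 was not called here. It was called with DESeq2 factors, with total counts, with TMM factors from the compared genes only and with a minimum of 50 counts, each of which moved the value by less than 0.07. Of the PA28 genes, which encode ring-shaped caps tied to interferon responses or the nucleus, Psme1 had 1948, 1853 and 3067 counts (0.41, 0.33 to 0.50), Psme3 was 0.17 (0.10 to 0.23) and Psme2 was 0.00 (-0.14 to 0.14). Psmf1, an inhibitor of the core, had 997, 1217 and 1232 counts (0.06, -0.06 to 0.19). The sum of the 5 genes was -0.52 (-0.55 to -0.50), and without Psme4 it was 0.21.

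Psme2b, on chromosome 11 from 48836181 to 48837017 of GRCm39, minus strand, had 338, 394 and 935 counts and was 2.34-fold higher with OSM (1.23, 1.05 to 1.41). The call was not made with total counts, and after centring on transcript length, described below, the value was 0.76. It has no introns, and 99.9% of its transcript is shared with transcripts of other genes at 97% identity or more, that of Psme2 among them. Psme2 shares 93.0% of its transcript in the same way, and had 781, 746 and 924 counts. Reads of these genes cannot be assigned to either with confidence, and both values are uncertain. Psmc3ip had 68, 78 and 43 counts and was lower with OSM (-0.90, -1.49 to -0.33), although its end overlaps Mlx on the opposite strand. Psme3ip1 had 879, 1032 and 1261 counts (0.28, 0.15 to 0.40).

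**Figure D2:**
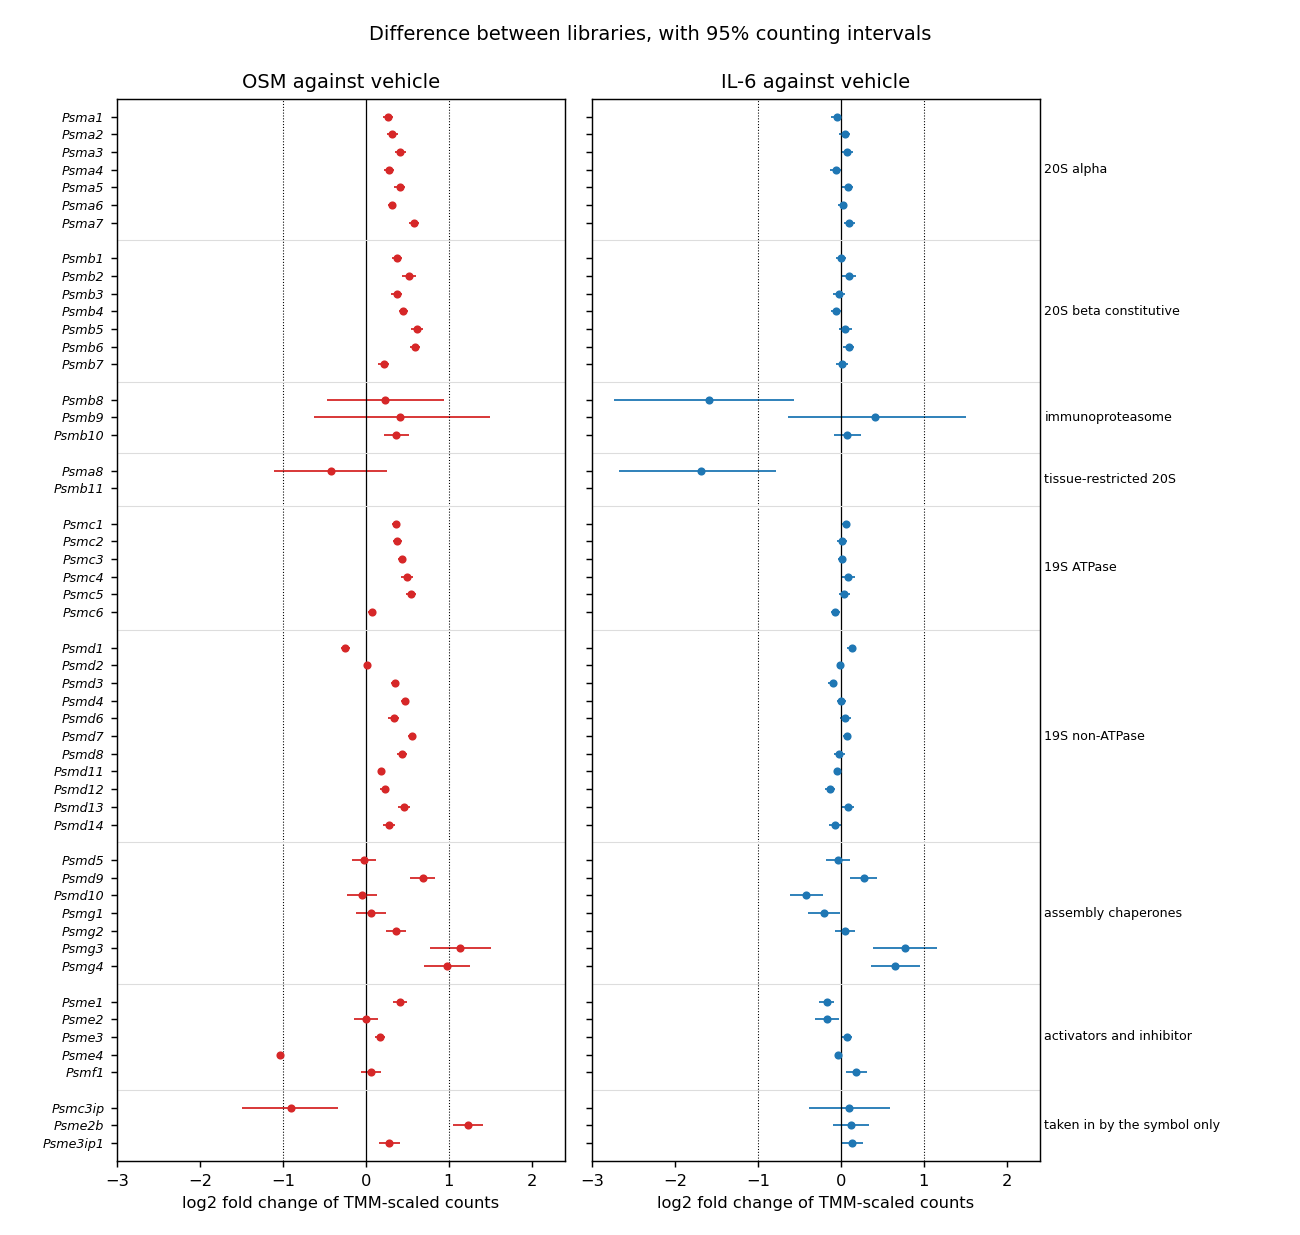
Log2 fold change of TMM-scaled counts for each proteasome gene (rows, grouped by role), OSM against vehicle on the left and IL-6 against vehicle on the right. Bars are 95% counting intervals and dotted lines mark 2-fold. With OSM 38 of 50 intervals lie above 0 and Psme4 lies at -1.03, while with IL-6 the constitutive core and 19S genes lie between -0.13 and 0.13.

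The difference with OSM has to be read beside transcript length. Across all compared protein-coding genes, the log2 fold change of OSM against vehicle fell steadily with the length of the canonical transcript, from a median of 0.47 in the shortest of 10 equal-sized length bins to -0.68 in the longest. Proteasome transcripts are short, with a median of 1668.5 bases against 3511.5 bases for protein-coding genes, and 19 of the 50 fell in the shortest bin. Less the median of its bin, the median proteasome gene was 0.07 higher with OSM, with 24 of 50 genes higher, beside 29.4% of all genes, and 14 lower, beside 33.8%. By the gene length of the authors' annotation it was 0.11 higher, with 28 genes higher, beside 29.8%, and 12 lower, beside 34.1%. Centred on transcript length, the class sums were 0.04 for 20S alpha, 0.18 for 20S beta, 0.15 for the ATPases and 0.03 for the other 19S subunits, and on gene length they were 0.07, 0.19, 0.15 and 0.16. Among genes with at least 1000 counts in the 4 bins of shortest transcripts, the median was 0.33 and 73.5% lay above 0 beyond counting error, beside a median of 0.37 and 90.6% for the 32 proteasome genes in this subset. Most of the shift was thus shared with other genes of that length. With 1 library per treatment, a property of the OSM library and a response of the cells cannot be told apart. A trend with transcript GC content was also present, with medians from -0.32 to 0.30, and after centring on GC the median proteasome gene stood at 0.38.

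Single genes stood apart from genes of their own transcript length, although some of these differences rest on which length was used. Psme4, the longest of the transcripts at 6492 bases, was still 0.68 below its bin (a difference of -0.68, -0.72 to -0.65), and by gene length the value was -0.69. Psmd1 was lower by both lengths (-0.29, -0.35 to -0.24, and -0.08 by gene length). Psmb1, the constitutive beta subunit with a long canonical transcript, stood 0.72 above its bin (0.66 to 0.78), Psmg3 0.67 (0.31 to 1.04), Psmd9 0.57 (0.42 to 0.72), Psmb2 0.56 (0.48 to 0.65) and Psmb5 0.31 (0.24 to 0.38). By gene length the values were 0.42 for Psmb1, 0.91 for Psmg3, 0.85 for Psmd9 and 0.13 for Psmb5, and Psmb2 was within counting error (0.03, -0.06 to 0.11). On the other side, Psmb7 (-0.26), Psma6 (-0.16) and Psmg1 (-0.41) lay below their bins beyond counting error, with the opposite sign to their uncentred values. By gene length Psma6 (-0.18) and Psmg1 (-0.42) also lay below, but Psmb7 lay above (0.08, 0.01 to 0.15). Psmb1 and Psmb2 are named here after their values had been seen. For both, the authors' gene length differs from the canonical length, at 4595 against 6002 bases for Psmb1 and 1204 against 4019 bases for Psmb2, so that their place in a bin is uncertain. Over the 50 genes, log2 fold change and log2 transcript length had a Pearson correlation of -0.40 and a Spearman correlation of -0.34, as a description of genes that share the same libraries.

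**Figure D3:**
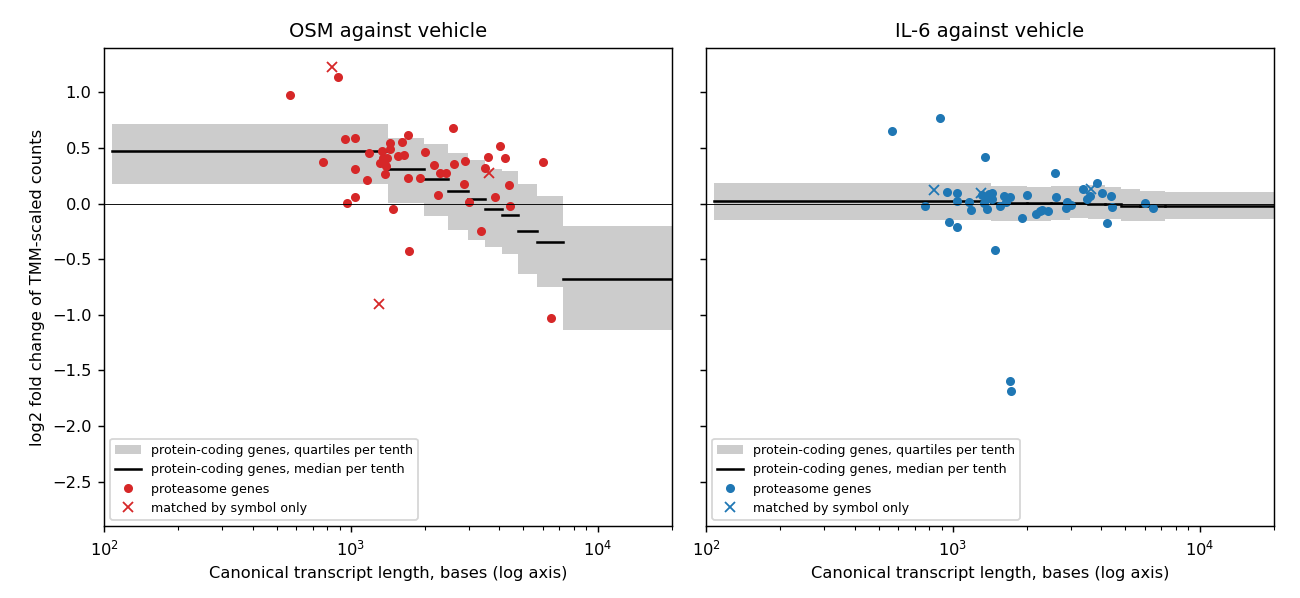
Log2 fold change of TMM-scaled counts against canonical transcript length in bases (log axis), for OSM against vehicle (left) and IL-6 against vehicle (right). Black lines and grey bands are the median and quartiles of protein-coding genes in each of 10 length bins, circles are proteasome genes and crosses the 3 genes matched by symbol only. The black lines descend from 0.47 to -0.68 with OSM and are flat with IL-6.

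IL-6 was compared with vehicle in the same way. The core and the 19S particle hardly differed between these libraries. The median log2 fold change of the 50 genes was 0.03, beside 0.00 for all compared genes. The interval lay above 0 for 15 genes, with a background of 19.6%, and below 0 for 12 genes, with a background of 19.1%. At 2-fold 0 genes were called higher, with a background of 1.77%, and 0 lower, with a background of 1.74%. The class sums were 0.02 (0.00 to 0.05) for 20S alpha, 0.02 (-0.01 to 0.04) for constitutive 20S beta, 0.02 (0.00 to 0.04) for the ATPases and -0.01 (-0.02 to 0.01) for the other 19S subunits. The lower bounds printed as 0.00 lay just below 0. Transcript length showed no such trend here, with medians from 0.02 in the shortest bin to -0.02 in the longest.

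The largest differences with IL-6 were those of the rare core genes Psma8 and Psmb8, given below. Among genes reaching 100 counts in both libraries together, the 3 highest and 2 of the 3 lowest were assembly chaperones. Psmg3 was 1.71-fold higher than with vehicle (0.77, 0.39 to 1.16), Psmg4 1.57-fold (0.65, 0.36 to 0.95) and Psmd9 1.21-fold (0.27, 0.11 to 0.43). Psmd10 was 1.33-fold lower (-0.41, -0.61 to -0.22) and Psmg1 lower (-0.21, -0.40 to -0.01), as were the activator genes Psme1 (-0.17, -0.26 to -0.08) and Psme2 (-0.17, -0.31 to -0.02), while Psmf1 was higher (0.19, 0.07 to 0.31). Psmg3, Psmg4 and Psmd9 were thus higher than vehicle in both cytokine libraries, but both comparisons use the same vehicle library, and a low vehicle value would raise both. Psme4 differed little with IL-6 (-0.04, -0.07 to -0.01).

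OSM was also compared with IL-6 directly. This comparison shares the OSM library with that against vehicle. The median of the 50 genes was 0.35. The interval lay above 0 for 43 genes, with a background of 33.2%, and below 0 for 4 genes, with a background of 33.2%, and 0 genes were called at 2-fold in either direction, with backgrounds of 4.24% higher and 5.42% lower. The same length trend was present, from 0.46 to -0.67. Psme4 was lower with OSM by this comparison too (-0.99, -1.03 to -0.96), and Psmb5 was higher (0.56, 0.49 to 0.63). Psmg3 (0.37, 0.07 to 0.67) and Psmg4 (0.32, 0.09 to 0.56) were higher with OSM than with IL-6, but less the median of their length bin the values were -0.09 and -0.13.

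Immunoproteasome genes were expressed at very unequal levels. Psmb10, which replaces Psmb7, had 588 counts with vehicle, 664 with IL-6 and 895 with OSM, at 13.6, 14.4 and 17.6 FPKM. Psmb8, which replaces Psmb5, had 31, 11 and 43 counts, at 0.36, 0.12 and 0.43 FPKM. Psmb9, which replaces Psmb6, had 14, 20 and 22 counts, at 0.15, 0.20 and 0.20 FPKM. Psmb10 was therefore readily counted in this pooled RNA, whereas Psmb8 and Psmb9 were near the limit of what this depth can measure. Psmb9 (34400961 to 34406738, minus strand) and Psmb8 (34416695 to 34420428, plus strand) are neighbours on chromosome 17 of GRCm39, and the end of Psmb9 overlaps the oppositely oriented Tap1, with 236, 231 and 214 counts.

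Psmb10 was higher with OSM than with vehicle (0.36, 0.21 to 0.52), but less the median of its length bin the value was -0.10 (-0.26 to 0.05). Psmb8 (0.23, -0.47 to 0.95) and Psmb9 (0.41, -0.62 to 1.49) did not differ detectably at this depth. With IL-6, Psmb10 (0.08, -0.09 to 0.24) and Psmb9 (0.41, -0.64 to 1.51) were within counting error. Psmb8 was lower with IL-6 than with vehicle (-1.59, -2.74 to -0.56), a difference of 11 against 31 counts. Tissue-restricted core genes were as rare. Psma8, of the testis, had 42, 14 and 37 counts and was also lower with IL-6 (-1.68, -2.67 to -0.78), and Psmb11, of the thymus, had 2, 0 and 0 counts. Taking 3 counts as the limit, a count of 0 allows up to 0.114 CPM in the IL-6 library and 0.0975 CPM in the OSM library.

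The ratio of immunoproteasome to constitutive catalytic counts needs no scaling between libraries. The sum of Psmb8, Psmb9 and Psmb10 was 6.64% of the sum of Psmb5, Psmb6 and Psmb7 with vehicle (6.12 to 7.20%), 6.54% with IL-6 (6.05 to 7.07%) and 6.07% with OSM (5.69 to 6.48%). The log2 change of this ratio was -0.13 (-0.28 to 0.02) for OSM against vehicle, -0.02 (-0.18 to 0.14) for IL-6 against vehicle and -0.11 (-0.25 to 0.04) for OSM against IL-6, each within counting error. Nearly all of the numerator was Psmb10. Psmb10 was 19.3%, 20.1% and 21.4% of Psmb7 in the vehicle, IL-6 and OSM libraries. Psmb8 was 1.22%, 0.39% and 0.94% of Psmb5, and its ratio was lower with IL-6 than with vehicle (-1.65, -2.79 to -0.61). Psmb9 was 0.36%, 0.44% and 0.31% of Psmb6, with overlapping intervals.

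**Figure D4:**
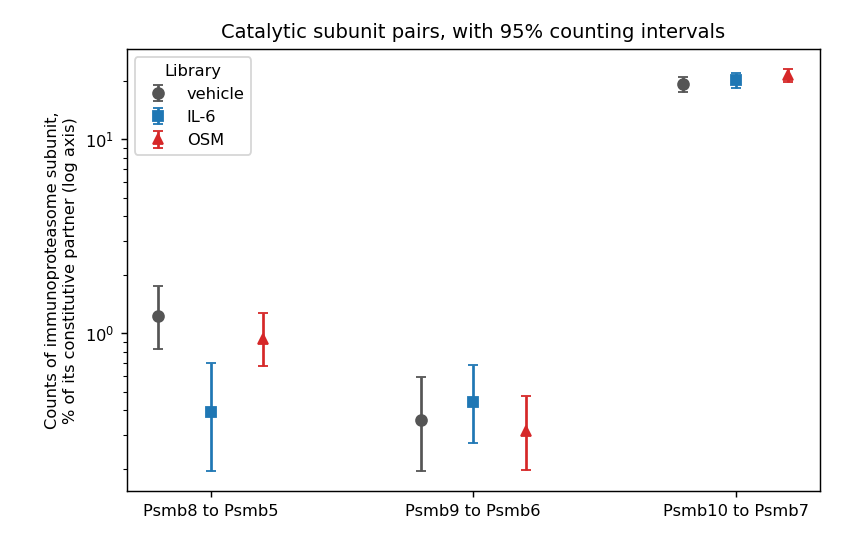
Counts of each immunoproteasome subunit as a percentage of the constitutive subunit it replaces (log axis), in the vehicle, IL-6 and OSM libraries, with 95% exact counting intervals. Psmb10 stands near 20% of Psmb7 in all 3 libraries, while Psmb8 and Psmb9 stay at or below 1.22% of their partners and the IL-6 value of Psmb8 is the lowest of its 3, with an interval below that of vehicle.

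Promoters were examined for short motifs of factors tied to proteasome genes or to the cytokines. The RefSeq table on GRCm38.p6 gave 47 promoters for 43 of the 51 genes, each of 250 bases before and 50 bases from the transcription start. Psma8, Psmb1, Psmb2, Psmb7, Psmc3, Psmd3, Psmd7 and Psmg2 had no entry. The core of the antioxidant response element (TGACNNNGC), bound by the Nrf1 and Nrf2 factors that control proteasome genes, was in 6 of the 47 promoters (12.8%), beside 12.4% of all 32851 promoters. These were the promoters of Psmb5, Psmb6, Psmc6, Psmd9, Psmd12 and Psme4. The STAT site (TTCNNNGAA) was in 3 (6.38%, beside 8.30%), those of Psmb8, Psmd2 and Psmg1. The interferon-stimulated core (GAAANNGAA) was in 7 (14.9%, beside 8.56%) and the NF-Y box (CCAAT) in 16 (34.0%, beside 37.4%). Both strands were searched. These shares are descriptions, and a match is not a bound site.

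The promoters of 5 genes are given because they carry the contrasts above, namely the catalytic genes highest with OSM (Psmb5 and Psmb6), their rare immunoproteasome counterparts (Psmb8 and Psmb9) and Psme4. Capitals mark the matches, which do not overlap each other. They are the antioxidant core in Psmb5 (bases -47 to -39, the start being base 1), Psmb6 (-9 to -1) and Psme4 (-7 to 2, on the opposite strand), the STAT site in Psmb8 (-97 to -89) and the NF-Y box in Psmb9 (-8 to -4, on the opposite strand). The coordinates are those of GRCm38.p6, not of the count table.
Psmb5 (chr14:54617946-54618245, minus strand): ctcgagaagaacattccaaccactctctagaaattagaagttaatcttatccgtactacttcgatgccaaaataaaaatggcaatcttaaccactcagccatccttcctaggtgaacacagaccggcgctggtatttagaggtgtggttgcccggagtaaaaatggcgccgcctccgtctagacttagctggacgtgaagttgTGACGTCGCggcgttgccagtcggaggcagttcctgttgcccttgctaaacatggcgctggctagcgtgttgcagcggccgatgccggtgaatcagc
Psmb6 (chr11:70525107-70525406, plus strand): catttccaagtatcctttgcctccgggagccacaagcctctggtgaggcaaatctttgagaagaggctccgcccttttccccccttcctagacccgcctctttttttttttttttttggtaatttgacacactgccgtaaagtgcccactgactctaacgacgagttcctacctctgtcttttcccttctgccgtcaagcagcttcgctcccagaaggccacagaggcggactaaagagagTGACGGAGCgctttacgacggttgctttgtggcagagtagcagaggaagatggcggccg
Psmb8 (chr17:34197945-34198244, plus strand): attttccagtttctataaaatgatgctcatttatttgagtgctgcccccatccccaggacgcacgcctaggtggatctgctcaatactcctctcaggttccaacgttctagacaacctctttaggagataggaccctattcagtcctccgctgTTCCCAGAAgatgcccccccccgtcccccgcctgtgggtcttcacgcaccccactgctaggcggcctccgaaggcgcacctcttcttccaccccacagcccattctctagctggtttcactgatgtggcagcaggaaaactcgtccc
Psmb9 (chr17:34187281-34187580, minus strand): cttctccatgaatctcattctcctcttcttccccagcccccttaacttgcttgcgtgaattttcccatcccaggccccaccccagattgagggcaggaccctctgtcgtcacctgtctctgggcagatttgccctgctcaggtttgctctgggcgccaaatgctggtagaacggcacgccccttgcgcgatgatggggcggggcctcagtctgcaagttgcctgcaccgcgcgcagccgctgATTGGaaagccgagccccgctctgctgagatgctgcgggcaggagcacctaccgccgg
Psme4 (chr11:30771525-30771824, plus strand): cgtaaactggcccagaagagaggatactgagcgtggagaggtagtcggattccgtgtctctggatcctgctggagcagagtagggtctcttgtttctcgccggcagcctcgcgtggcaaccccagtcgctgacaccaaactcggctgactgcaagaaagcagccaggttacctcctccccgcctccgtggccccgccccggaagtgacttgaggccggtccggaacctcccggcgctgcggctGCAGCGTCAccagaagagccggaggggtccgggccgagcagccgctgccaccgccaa

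Of the 6 genes with the antioxidant core, Psmb5 (0.62), Psmb6 (0.59), Psmd9 (0.68), Psmd12 (0.23) and Psmc6 (0.07) were higher with OSM than with vehicle. Psme4 (-1.03) was lower. Beyond counting error, 33.4% of all compared genes were higher and 33.1% lower. Less the median of their transcript length bins, the values were 0.31 (Psmb5), 0.12 (Psmb6), 0.57 (Psmd9) and -0.68 (Psme4). Psmd12 (-0.08) and Psmc6 (-0.15) were then lower beyond counting error. Whether the motif has a part in any of these differences was not tested.

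Other genes of the proteasome, its cofactors and its regulators that lie outside the symbol rule were compared from a list. Of 22 genes found and compared, 10 were higher with OSM than with vehicle beyond counting error and 8 lower, beside 33.4% and 33.1% of all compared genes, and 0 were called at 2-fold, beside 3.74% higher and 5.43% lower. Their median was 0.06. The largest differences were those of Ddi2, the protease that activates Nrf1 (1073, 1098 and 702 counts, -0.85), and Ecpas, a proteasome adaptor (8061, 8704 and 5857 counts, -0.70). Ecpas and Ddi2 have long transcripts, of 7056 and 9538 bases, and less the median of their bins the values were -0.35 and -0.17. In the other direction the largest were Adrm1 (0.65), Pomp (0.59) and Sem1 (0.49). Less the median of their bins these were 0.34, 0.12 and 0.02. Of 13 antigen processing partners, 7 were higher with OSM and 3 lower, against the same backgrounds, and 0 were called at 2-fold. Erap1, a peptide-trimming enzyme, had 921, 923 and 798 counts (-0.45, -0.59 to -0.31).

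The labelled cell type was compared with its markers. All 8 cardiomyocyte markers were detected, with a summed level of 10715 FPKM with vehicle, 11116 with IL-6 and 14564 with OSM. They did not move together, since 5 were higher and 3 lower with OSM than with vehicle beyond counting error. Ryr2, a long transcript for the calcium release channel, was called lower (22606, 23555 and 9264 counts, -1.53), and Myh6 (-0.04) and Pln (-0.08) were also lower. Less the median of their transcript length bins, the values were -0.85 for Ryr2, 0.31 for Myh6 and -0.03 for Pln. Those of the 5 higher markers were then 0.11 (Tnnt2) to 0.25 (Myl3). The 7 lymphocyte markers had 0 counts in every library. Of 6 macrophage markers, C1qa and C1qb had 0 counts throughout, and the summed level of the list was 13.4, 14.3 and 39.1 FPKM, of which Cd68, a lysosomal protein, gave 12.01, 13.2 and 37.8. The sums of the endothelial list lay between 6.40 and 6.87 FPKM and those of the fibroblast list between 0.67 and 1.03 FPKM. The part of other cells in the proteasome values was not tested beyond these sums. In pooled bulk RNA, fewer cells of a type and less RNA per cell cannot be told apart.

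Some counts may be shared with other genes. Of the 51 genes, 25 overlap another annotated gene, 10 of them on the same strand, and 19 share at least 10% of their transcript at 97% identity with another transcript. Psma5 shares 78.0% with transcripts of other genes, of which the pseudogene Psma5-ps was the best match. Psma5-ps had 223, 312 and 386 counts, beside 3123, 3542 and 4898 for Psma5. Psmb3 shares 96.5% and Psmb5 68.1% with transcripts of other genes. No source used here states whether strand entered the counting.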

How the data were processed

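RNA from cultured ACMs was pooled per treatment by the authors, selected for poly(A) and sequenced as paired reads. Per the labels' tool list, reads passed fastp, HISAT2 2.2.1 and featureCounts 2.0.6 on mm39, with edgeR 4.0.16. The paper names other versions of the counter and of edgeR. The authors deposited whole-number counts per gene without normalization. The deposited FPKM values are the authors' own and equal count over gene length and 1 constant per library. Unmatched per-sample columns numbered 0.

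For each pair of libraries, TMM factors were computed from all genes with edgeR 4.0.16 (R 4.3.3). Genes reaching 10 counts summed over both libraries were compared by the log2 ratio of scaled counts, with the 95% Clopper-Pearson interval. A call required that the interval lay wholly beyond 2-fold. With 1 library per treatment no P-value is given. The rule was tested on simulated data. Ratios of summed counts have exact conditional intervals. Canonical transcripts, their lengths and GC content came from GENCODE M39, which held all 51 genes, and shared sequence from BLAST 2.17.0.

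Values were given for genes called at 2-fold, the catalytic pairs, the 5 largest and 5 smallest differences with OSM and 3 and 3 with IL-6 among genes reaching 100 counts in both libraries together, the highest and lowest level of each class, and genes under 10 counts. Not every gene that this rule names is given here. Others are named as the ends of a class range or for a shared property. The members, lists and tests were chosen with earlier results of these data known. Alternatives were DESeq2 1.42.0, upper-quartile, total-count and 3-library TMM factors, other count minimums, a 1.5-fold threshold, a prior count of 2, FPKM ratios, edgeR's exact test with an assumed coefficient of variation of 0.2, and centring on gene length. Centring on canonical transcript length, class sums without their largest member, TMM factors from the compared genes only and the ratio without Psmb10 and Psmb7 were added after seeing the data.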

Additional observations from a re-analysis of the deposited data

How the results depend on the processing

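No paired analysis was possible because each treatment had 1 library. Of 324 recomputed counts, sums and ratios, 281 kept their call, meaning a count within 1.5 times or a value on the same side of counting error. So did 627 of 675 values of single genes. Among these, 8 sums or ratios and 11 single values changed sign within counting error. The cause of the other changes was not tested unless said.

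Scaling mattered for Psme4 and for small sums. With DESeq2 factors, total counts, TMM factors from the compared genes only or a minimum of 50 counts, 1 gene was called lower with OSM than with vehicle. With total counts 0 were called higher, 1 was lower than with IL-6 and 6 were below 0 for IL-6 against vehicle, where 20S alpha gave 0.0444, 20S beta 0.0371 and the ATPases 0.0407, each then beyond counting error. The alpha sum for IL-6 against vehicle also passed counting error at 0.0268 with DESeq2, 0.0249 with TMM from the compared genes, 0.0259 with TMM over 3 libraries and 0.0273 with upper quartiles. With total counts Psmd2 turned to -0.0441 against vehicle and -0.0536 against IL-6. At 1.5-fold, OSM had 3 genes higher and 1 lower against vehicle and 2 higher and 1 lower against IL-6, and IL-6 had 1 lower against vehicle. For the counts of genes under these settings no share of all compared genes is given, so that they have no background to be read against.

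Centring on canonical transcript length gave 0 genes called higher for OSM against vehicle. Beyond counting error, 24 lay above and 14 below 0, beside 29.4% and 33.8% of all compared genes. For OSM against IL-6 the counts were 26 and 13, beside 29.8% and 33.6%. Against vehicle, the sums became -0.10 (immunoproteasome), -0.73 (Psma8) and 0.0464 (chaperones), and against IL-6 -0.13 (immunoproteasome) and 0.00699 (chaperones). Some genes named by rule took the opposite sign, with the value before or after centring beyond counting error. Against vehicle and against IL-6 these were Psma6 (-0.16 and -0.16), Psmb10 (-0.10 and -0.17), Psmb7 (-0.26 and -0.25), Psmg1 (-0.41 and -0.19) and Psmg2 (-0.11 and -0.14). Against IL-6 alone they were Psmg3 (-0.0901) and Psmg4 (-0.13). Outside the rule, only genes whose centred value was itself beyond counting error are listed. Of these, Psma1, Psmc6, Psmd6 and Psme2 turned in both comparisons, Psmb3 and Psmd12 against vehicle and Psma5 against IL-6.

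Centring on gene length gave 0 genes called higher for OSM against vehicle and 12 below 0, beside 34.1% of all compared genes. For OSM against IL-6, 28 lay above and 10 below 0, beside 29.8% and 34.1%. The immunoproteasome sum turned to -0.10 against vehicle and -0.12 against IL-6, and Psma8 was at -0.72 against vehicle. By the same rule, genes named by rule with the opposite sign were Psma6 (-0.18 and -0.17), Psmb10 (-0.12 and -0.18), Psmg1 (-0.42 and -0.19) and Psmg2 (-0.13 and -0.15). Against vehicle alone they were Psmd2 (-0.0335) and Psmd5 (0.15). Against IL-6 alone they were Psmd10 (-0.10), Psmf1 (0.0450) and Psmg4 (-0.14). Outside the rule, with the centred value itself beyond counting error, Psma5 and Psme2 turned in both, Psmc6 against vehicle and Psme3 against IL-6.

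Without Psme4 the activator sum was 0.21 against vehicle and 0.21 against IL-6. Without Psmb10 the immunoproteasome sum was 0.29 for OSM against vehicle, within counting error, and without Psmb4 the beta sum was 0.0363 for IL-6 against vehicle. The immunoproteasome ratio passed counting error for Psmb8 to Psmb5, at -1.65 in IL-6 against vehicle and 1.26 in OSM against IL-6, and at -0.72 for IL-6 against vehicle without Psmb10 and Psmb7. Depth limits Psmb8, Psmb9, Psma8 and Psmb11, whose counts were at most 43 in any library.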
